A study of Homo sapiens with 6 samples.

Results

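The genes examined were 47 components of TGF-beta and BMP signalling, made up of 11 ligands, the proteinase BMP1, 11 receptors and co-receptors, 8 SMADs, 8 intracellular and membrane inhibitors, 3 ID genes and 5 secreted antagonists. They were taken by gene symbol from an expression table of 58174 genes, in which each of the 47 symbols had a row of its own. The table held polyA RNA-seq data of A549, a human line that was established from lung adenocarcinoma cells. Parental cells (Ctrl, 3 libraries) were compared with cells lacking the MIR21 gene, the source of the microRNA miR-21-5p (MIR21-KO, 3 libraries). MIR21 had been deleted by CRISPR/Cas9 with a pair of guide RNAs, and the cells of each group were grown in DMEM with fetal bovine serum and harvested 48 h after seeding. MIR21-KO cells were grown from single sorted cells, whereas Ctrl cells were the parental population. How many clones stand behind the 3 MIR21-KO libraries is not given, so that a difference between clones and an effect of the deletion cannot be told apart. The study describes the 3 libraries of a group as independent samples, without stating whether these were cultures of 1 clone or of several, and the p-values measure the spread between these libraries.

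The libraries rested on 10631667 to 14345209 reads, and for a 1 kb gene a single read added 0.0731 to 0.0930 FPKM (fragments per kilobase of gene, scaled to library size). Over the 16006 tested genes, the Pearson correlation of log2 values was 0.950 to 0.959 within Ctrl, 0.933 to 0.957 within MIR21-KO and 0.896 to 0.912 across the groups. MIR21 was listed at 0 in 6 of 6 libraries, and since short microRNA precursors are not captured by polyA selection, these values give no check of the deletion. The epithelial keratin KRT8 stood at 352 to 499 FPKM and KRT18 at 335 to 688 FPKM in the 6 libraries, and the summed level of ALDH1A1, AKR1B10 and AKR1C1, which are abundant in A549 cells, was 3008 to 3598 FPKM. The adhesion gene EPCAM was low, at 0.389 to 1.65 FPKM, and CDH1 (E-cadherin) was called lower in MIR21-KO cells, with a log2 fold change of -1.48. Among 11 markers of leukocytes, endothelial cells and fibroblasts, CD14 stood at 3.19 to 5.10 FPKM and LUM at 1.42 to 2.41 FPKM, and the other 9 had means under 0.5 FPKM. In such cultures, fewer expressing cells and less RNA per cell cannot be told apart.

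Ligands of the TGF-beta superfamily are secreted as dimers and bind pairs of type II and type I receptor kinases, which phosphorylate SMAD proteins. TGF-beta and activin signals run mainly through SMAD2 and SMAD3, BMP signals through SMAD1, SMAD5 and SMAD9, and each of these joins SMAD4 to act in the nucleus. Secreted antagonists trap ligands outside the cell, and inhibitory SMADs, ubiquitin ligases and corepressors dampen the signal within it. In epithelial cells, TGF-beta signalling is known for growth arrest and for epithelial-mesenchymal transition, and the microRNA miR-21 has been linked to the pathway as a regulator of several of its mRNAs.

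Because miR-21-5p pairs with mRNAs through its seed (bases 2 to 8), the longest annotated 3' UTR of each gene was searched for the complement of that seed. An 8mer site is the heptamer ATAAGCT followed by A, a 7mer-m8 site the heptamer alone, a 7mer-A1 site the last 6 bases TAAGCT followed by A, and a 6mer site these 6 bases alone. The mature sequences, credited to RefSeq (GRCh38.p14), are shown with the seed in capitals, since the sites below are defined by it.
hsa-miR-21-5p: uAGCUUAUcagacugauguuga
hsa-let-7a-5p: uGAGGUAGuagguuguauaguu
The 4 pathway genes with an 8mer for miR-21-5p were TGFB2, BMPR2, SMAD7 and SKI. A 7mer-m8 was the best site in TGFBR1, TGFBR2 and TGFBR3, and in SMURF2 and ACVR2B. Shown are the 8mers and the 7mer-m8 sites of TGFBR1, TGFBR2 and TGFBR3, on the mRNA strand with the seed match in capitals. Each has 27 bases in all, from GENCODE 29 transcripts on GRCh38.
TGFB2 (chr1:218442629-218442655, plus strand): tttcattattatgacATAAGCTAcctg
BMPR2 (chr2:202567241-202567267, plus strand): atggacaggagaaacATAAGCTAcgga
SMAD7 (chr18:48920239-48920265, minus strand): tgtttagactttaacATAAGCTAtttt
SKI (chr1:2307043-2307069, plus strand): atttacacttttgttATAAGCTAttta
TGFBR1 (chr9:99153474-99153500, plus strand): aagaggagaaaaaaacATAAGCTgtgt
TGFBR2 (chr3:30691789-30691815, plus strand): ttgacattgtcataggATAAGCTgtgt
TGFBR3 (chr1:91682440-91682466, minus strand): ccactttgcagctaaaATAAGCTcagt
Each of these sites lies in the 3' UTR of the gene it is named for. The sites are matches of letters and their use by the microRNA was not tested here.

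To see which components differ upon MIR21 deletion, every gene whose mean reached 0.5 FPKM was tested by limma on log2(FPKM + 0.1), and differences with an FDR (Benjamini-Hochberg) under 0.01 over all tested genes were called. Of the 47 genes 38 were tested, and 9 lay below the minimum. At that threshold 16 of the 38 (42.1%) were called, where 16.0% of all tested genes were called. Of the 16, 8 were higher in MIR21-KO cells (21.1%, against 7.66% of all tested genes) and 8 were lower (21.1%, against 8.38%). The ranges of the groups were separate for 26 genes (68.4%), which held for 48.1% of all tested genes. The median log2 fold change of the 38 was 0.16, that of all tested genes was -0.02, and 22 of the 38 estimates were positive. Fold changes compare MIR21-KO with Ctrl after 0.1 was added to each FPKM, so that for genes near 0 they are too small.

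The count of calls changed when single libraries were left out. Without MIR21-KO replicate 2, limma called 4 of these genes higher and 2 lower. Without Ctrl replicate 1, 2 or 3 it called 5 higher and 3, 4 or 2 lower. Without MIR21-KO replicate 1 it called 8 higher and 6 lower, and without MIR21-KO replicate 3 it called 7 higher and 9 lower. Over all tested genes, calls fell from 2568 to 768 without MIR21-KO replicate 2. They fell to between 873 and 922 without 1 Ctrl library. The drop in these runs was thus not confined to the pathway genes. The calls of INHBB, BMP1, SMAD7, PMEPA1 and ID2 were kept under each of the 17 alternatives tried. An FDR under 0.05, counted among the 17, could remove no call. Each of the 16 called genes kept its direction under each alternative in which it was tested, with an FDR of 0.0472 at the highest (TGIF2 without MIR21-KO replicate 2).

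Among the ligands, TGFB1, TGFB2 and BMP6 rose upon MIR21 deletion, whereas BMP4 and INHBB fell. TGFB1 (ENSG00000105329, chromosome 19, 41301587 to 41353911, minus strand) encodes the TGF-beta isoform found in most tissues and was the most abundant ligand transcript. It stood at 80.5, 78.0 and 77.6 FPKM in Ctrl replicates 1 to 3 and at 135, 117 and 110 FPKM in MIR21-KO replicates 1 to 3. The lowest MIR21-KO value was thus above the highest Ctrl value, which made a log2 fold change of 0.61 with a standard error (±) of 0.0955 (FDR = 0.00429, limma). TGFB2 (ENSG00000092969, chromosome 1, 218346235 to 218444619, plus strand), which signals with the help of the co-receptor betaglycan, had 14.7, 13.7 and 12.8 FPKM in Ctrl and 23.7, 26.9 and 35.0 FPKM in MIR21-KO libraries. The groups were apart although the MIR21-KO values spread widely, and its log2 fold change was 1.03 ± 0.148 (FDR = 0.00312, limma). TGFB3, the remaining isoform, was near the detection limit with 9 to 26 reads per library and was not tested. TGFB1 shares 215 exonic bases with HNRNPUL1 on the opposite strand, and whether strand was used in counting is not given in the sources used here.

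The bone morphogenetic protein transcripts changed in opposite directions. BMP6 (ENSG00000153162, chromosome 6, 7726797 to 7881422, plus strand), known for its part in iron homeostasis, had 1.41, 1.07 and 1.60 FPKM in Ctrl and 3.78, 4.44 and 4.63 FPKM in MIR21-KO libraries. Every MIR21-KO value was more than that of any Ctrl library, with a log2 fold change of 1.59 ± 0.175 (FDR = 0.00118, limma). BMP4 (ENSG00000125378, chromosome 14, 53949736 to 53958761, minus strand), a ligand with broad roles in development, had 8.16, 9.35 and 8.83 FPKM in Ctrl and 5.38, 5.41 and 4.70 FPKM in MIR21-KO libraries. Its log2 fold change was -0.75 ± 0.0980 (FDR = 0.00210, limma), with all MIR21-KO values below those of Ctrl. BMP2, a close relative of BMP4, was not called, with 0.943 ± 0.122 FPKM in Ctrl and 0.666 ± 0.0295 FPKM in MIR21-KO cells (SD, n = 3; FDR = 0.157, limma). BMP7 had at most 3 reads in a library and was not tested.

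As shares of the summed FPKM of BMP2, BMP4, BMP6 and BMP7, BMP6 made up 12.3% ± 2.67 in Ctrl and 42.3% ± 3.86 in MIR21-KO cells (SD, n = 3). BMP4 made up 79.0% ± 1.68 and 51.1% ± 3.99, respectively. The sum itself was 11.1 ± 0.579 FPKM in Ctrl and 10.1 ± 0.370 FPKM in MIR21-KO cells. The makeup of these BMP ligand transcripts thus differed between the groups by far more than their summed level did. BMP8B, which is not in the sum, had 1.09 ± 0.0836 FPKM in Ctrl and 0.671 ± 0.109 FPKM in MIR21-KO cells. It was not called (FDR = 0.0610, limma).

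INHBB (ENSG00000163083, chromosome 2, 120346143 to 120351808, plus strand), which encodes the activin and inhibin beta B subunit, showed the largest drop of all 38 tested components. It had 3.73, 2.64 and 3.17 FPKM in Ctrl libraries, from 152, 91 and 139 reads. In MIR21-KO libraries it was listed at 0, 0 and 0.0722 FPKM, from 0, 0 and 3 reads. Scaled by library size, Ctrl held 133.1 times the reads of MIR21-KO (95% confidence interval 45.2 to 648, exact binomial, counting error only). The fitted log2 fold change of -4.76 ± 0.361 (FDR = 0.000284, limma) depends on the added 0.1 and ranged from -7.11 to -2.02 over the alternatives. A count of 0 leaves room for a level of up to 3 reads. The 37 mitochondrial genes, which every cell uses, were listed at 0 in every library, whereas INHBB had reads in each Ctrl library and in MIR21-KO replicate 3.

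The other activin-related ligands were not called or not tested. INHBA, the beta A subunit, had 3, 3 and 4 reads in Ctrl and 18, 19 and 30 reads in MIR21-KO libraries, so that its few reads were more numerous in MIR21-KO cells by a factor of 6.41 (95% confidence interval 3.28 to 14.0, exact binomial, counting error only). With a mean below 0.5 FPKM it was not tested, and without that filter its FDR was 0.0535. INHBE had at most 6 reads in a library. GDF11, a ligand close to myostatin, was not called, with 2.57 ± 0.0668 FPKM in Ctrl and 3.01 ± 0.0468 FPKM in MIR21-KO cells (FDR = 0.145, limma).

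Of the 5 called ligands, INHBB kept its call without any 1 of the libraries. TGFB1 (FDR 0.0224 to 0.0263) and TGFB2 (0.0138 to 0.0181) were no longer called without any 1 of the Ctrl libraries or without MIR21-KO replicate 2, BMP4 (0.0123 to 0.0151) without Ctrl replicate 2 or 3 or MIR21-KO replicate 2, and BMP6 (0.0104) without MIR21-KO replicate 2.

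**Figure D1:**
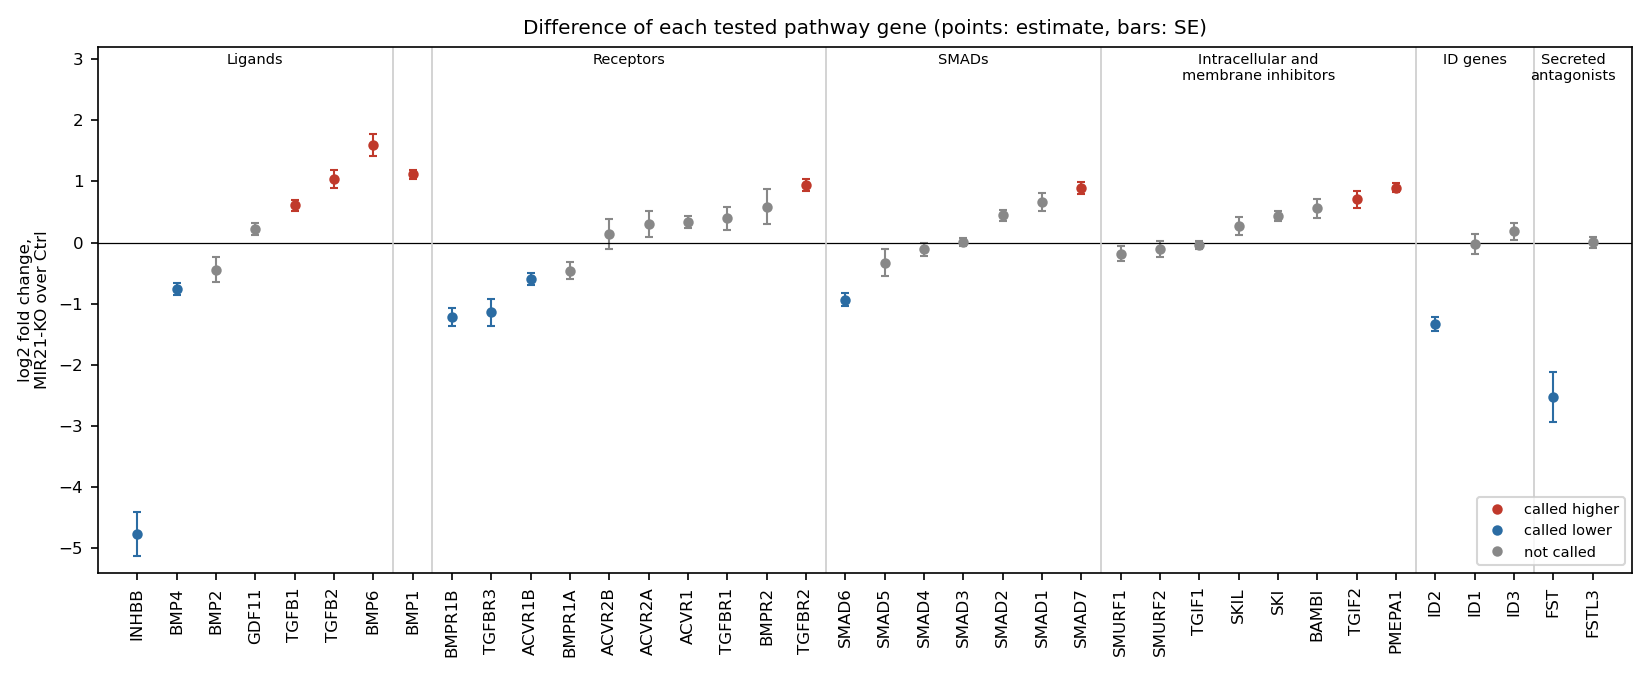
Log2 fold change of each of the 38 tested pathway genes, MIR21-KO over Ctrl on the log2(FPKM + 0.1) scale, ordered by role, with points for the estimate, bars for its standard error (limma, 3 libraries per group) and colours for the call at an FDR under 0.01. INHBB and FST lie far below the others at -4.76 and -2.52, and BMP6 and BMP1 lead the higher genes at 1.59 and 1.12.

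BMP1 (ENSG00000168487, chromosome 8, 22164736 to 22212326, plus strand) is, despite its name, a metalloproteinase that trims procollagens and the antagonist chordin. It rose from 14.7, 15.1 and 15.7 FPKM in Ctrl to 33.6, 33.4 and 31.9 FPKM in MIR21-KO libraries. The values within each group were close to each other and far from the other group, and the log2 fold change was 1.12 ± 0.0667 (FDR = 0.000125, limma), the smallest FDR among the 47 genes.

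TGF-beta is secreted bound to its propeptide and to latent TGF-beta binding proteins, and has to be released before it can bind its receptors. Of 12 further genes that act in latency and activation, 9 were tested and 5 were called, each of them higher in MIR21-KO cells, where 7.66% of all tested genes were called higher. The median log2 fold change of the 9 was 0.86. These genes were chosen with earlier results of these data known, so their count is not independent of the values. Smallest in FDR were LTBP1 and LTBP3, which encode latent TGF-beta binding proteins, and FURIN, the convertase that cleaves the TGF-beta precursor. LTBP1 rose from 4.88 ± 0.455 to 26.3 ± 2.85 FPKM (log2 fold change 2.41, FDR = 5.72e-05), LTBP3 from 15.2 ± 0.320 to 57.9 ± 5.80 FPKM (1.92, FDR = 5.72e-05) and FURIN from 14.8 ± 0.0277 to 29.4 ± 1.39 FPKM (0.99, FDR = 0.000202, limma). LTBP4 (0.86) and LTBP2 (0.83) were the other 2 called genes, and LTBP2 was no longer called without any 1 of the Ctrl libraries or without MIR21-KO replicate 2 (FDR of 0.0291 at the highest). Not called were THBS1 (0.86, FDR = 0.0130), ITGAV (0.55), ITGB6 (-0.29) and PCSK6 (-0.71, FDR = 0.0215), and LRRC32, NRROS and ITGB8 were not tested.

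Among the receptors, TGFBR2 rose and TGFBR3, ACVR1B and BMPR1B fell. TGFBR2 (ENSG00000163513, chromosome 3, 30606502 to 30694142, plus strand), the type II receptor that binds TGF-beta directly, was the most abundant receptor transcript. It had 49.0, 44.2 and 45.5 FPKM in Ctrl and 80.0, 90.5 and 97.7 FPKM in MIR21-KO libraries. The MIR21-KO values were all well above those of Ctrl, with a log2 fold change of 0.95 ± 0.0962 (FDR = 0.000865, limma). The type I partner TGFBR1 was not called, with 14.1 ± 0.932 FPKM in Ctrl and 14.3, 18.5 and 24.3 FPKM in MIR21-KO libraries, the lowest of which lay within the Ctrl range (log2 fold change 0.40 ± 0.184, FDR = 0.149, limma). TGFBR1 was called (FDR = 0.00627) once trends of each library on gene length and GC content had been removed.

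TGFBR3 (ENSG00000069702, chromosome 1, 91680343 to 91906335, minus strand) encodes betaglycan, the co-receptor that presents TGF-beta, in particular the product of TGFB2, to the type II receptor. It had 2.58, 1.76 and 2.13 FPKM in Ctrl and 0.784, 0.826 and 1.18 FPKM in MIR21-KO libraries. The groups did not overlap, and the log2 fold change was -1.14 ± 0.220 (FDR = 0.00940, limma). Endoglin (ENG), the related co-receptor of endothelial cells, had 1 to 24 reads in a library and was not tested.

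Among the type I receptors for activins and BMPs, ACVR1B and BMPR1B fell. ACVR1B (ENSG00000135503, chromosome 12, 51951667 to 51997078, plus strand), the activin type I receptor, had 7.19, 6.75 and 6.73 FPKM in Ctrl and 4.06, 4.55 and 5.03 FPKM in MIR21-KO libraries. This gave a log2 fold change of -0.59 ± 0.104 (FDR = 0.00645, limma) with no overlap between the groups. BMPR1B (ENSG00000138696, chromosome 4, 94757968 to 95158448, plus strand), a BMP type I receptor, had 2.96, 2.53 and 3.30 FPKM in Ctrl and 1.12, 1.22 and 1.25 FPKM in MIR21-KO libraries. Its 3 MIR21-KO values were close together and below every Ctrl value, with a log2 fold change of -1.22 ± 0.148 (FDR = 0.00161, limma).

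The remaining 5 tested receptors were not called. BMPR1A had 4.34 ± 0.247 FPKM in Ctrl and 3.16 ± 0.561 FPKM in MIR21-KO cells (log2 fold change -0.46 ± 0.143, FDR = 0.0486, limma), and was called without MIR21-KO replicate 3 (FDR = 0.00700). ACVR1, another BMP type I receptor, had 3.93 ± 0.205 and 5.01 ± 0.324 FPKM (0.34 ± 0.0976, FDR = 0.0373, limma). Of the summed FPKM of ACVR1, BMPR1A and BMPR1B, ACVR1 took 35.1% ± 0.585 in Ctrl and 53.6% ± 1.86 in MIR21-KO cells, and BMPR1B took 26.1% ± 2.93 and 12.8% ± 0.723 (SD, n = 3). The type II receptor BMPR2 had 3.40 to 4.98 FPKM in Ctrl and 4.42, 5.94 and 9.47 FPKM in MIR21-KO libraries. Its groups overlapped and MIR21-KO replicate 3 stood far above the others (log2 fold change 0.59 ± 0.282, FDR = 0.158, limma), and with the length and GC trends removed it was called (FDR = 0.00635). ACVR2A and ACVR2B, the activin type II receptors, were low at 0.650 to 1.13 FPKM and had FDRs of 0.316 and 0.711.

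The call of TGFBR2 was kept without any 1 of the libraries. TGFBR3 (FDR 0.0200 to 0.0424) and ACVR1B (0.0111 to 0.0334) were no longer called without any 1 of the libraries other than MIR21-KO replicate 3, and BMPR1B (0.0111 to 0.0119) without Ctrl replicate 1 or 3 or MIR21-KO replicate 2. Of 10 further receptors and co-receptors 4 were tested and 2 called, where 16.0% of all tested genes were called. The 2 were NRP1 (log2 fold change 0.57, FDR = 0.00894) and NRP2 (0.77, FDR = 0.00403, limma), neuropilins that can bind TGF-beta beside their other ligands. Both were no longer called without any 1 of the Ctrl libraries or without MIR21-KO replicate 2, with FDRs of up to 0.0409 for NRP1 and 0.0245 for NRP2.

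Of the SMADs, the 5 tested mediators were not called, whereas the inhibitory SMAD7 rose and SMAD6 fell. SMAD3, which carries TGF-beta and activin signals, was the most abundant, with 47.5, 46.5 and 46.9 FPKM in Ctrl and 45.1, 48.8 and 47.8 FPKM in MIR21-KO libraries. The Ctrl values lay within the MIR21-KO range, and the log2 fold change was 0.01 ± 0.0672 (FDR = 0.946, limma). The common partner SMAD4 had 3.88 ± 0.0608 FPKM in Ctrl and 3.59 ± 0.274 FPKM in MIR21-KO cells (FDR = 0.433, limma).

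SMAD2, the other SMAD of the TGF-beta branch, missed the threshold with a log2 fold change of 0.45 ± 0.0915 (FDR = 0.0110, limma) and no overlap between the groups, at 3.29 ± 0.0987 and 4.53 ± 0.148 FPKM. The table gives SMAD2 a length of 36366 bases, against 9113 for SMAD3, so that its FPKM is small for its 1254 to 2246 reads. Among the SMADs of the BMP branch, SMAD1 had 2.04 ± 0.306 FPKM in Ctrl and 3.27 ± 0.244 FPKM in MIR21-KO cells (log2 fold change 0.66 ± 0.145, FDR = 0.0147, limma). With voom on the recovered reads, SMAD1 (FDR = 0.00450) and SMAD2 (FDR = 0.00152) were called higher. SMAD5 was not called, with 7.78 to 9.51 FPKM in Ctrl and 4.97 to 9.15 FPKM in MIR21-KO libraries (FDR = 0.291, limma), and SMAD9 had at most 1 read in a library. SMAD1 thus made up 19.3% ± 0.977 of the summed SMAD1, SMAD5 and SMAD9 in Ctrl and 32.8% ± 5.17 in MIR21-KO cells (SD, n = 3).

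SMAD7 (ENSG00000101665, chromosome 18, 48919853 to 48952052, minus strand), which blocks TGF-beta and BMP receptors and is induced by TGF-beta in a feedback loop, was higher in every MIR21-KO library. It had 9.06, 7.48 and 7.96 FPKM in Ctrl and 15.8, 14.4 and 15.5 FPKM in MIR21-KO libraries. The groups were far apart, with a log2 fold change of 0.89 ± 0.0950 (FDR = 0.00101, limma). SMAD6 (ENSG00000137834, chromosome 15, 66702228 to 66782848, plus strand), which acts mainly on the BMP branch, fell. It had 12.9, 12.8 and 12.9 FPKM in Ctrl and 5.79, 6.75 and 7.58 FPKM in MIR21-KO libraries, a log2 fold change of -0.94 ± 0.109 (FDR = 0.00144, limma). Every MIR21-KO value of SMAD6 was below the Ctrl values, which hardly differed from each other.

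The sum of SMAD6 and SMAD7 was 21.0 ± 0.860 FPKM in Ctrl and 21.9 ± 1.03 FPKM in MIR21-KO cells. SMAD7 took 38.8% ± 2.25 of it in Ctrl and 69.5% ± 3.26 in MIR21-KO cells (SD, n = 3). The inhibitory SMAD with more transcript was therefore SMAD6 in each Ctrl library and SMAD7 in each MIR21-KO library. The call of SMAD7 was kept without any 1 of the libraries, and SMAD6 (FDR 0.0104 to 0.0109) was no longer called without Ctrl replicate 1 or 3 or MIR21-KO replicate 2.

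**Figure D2:**
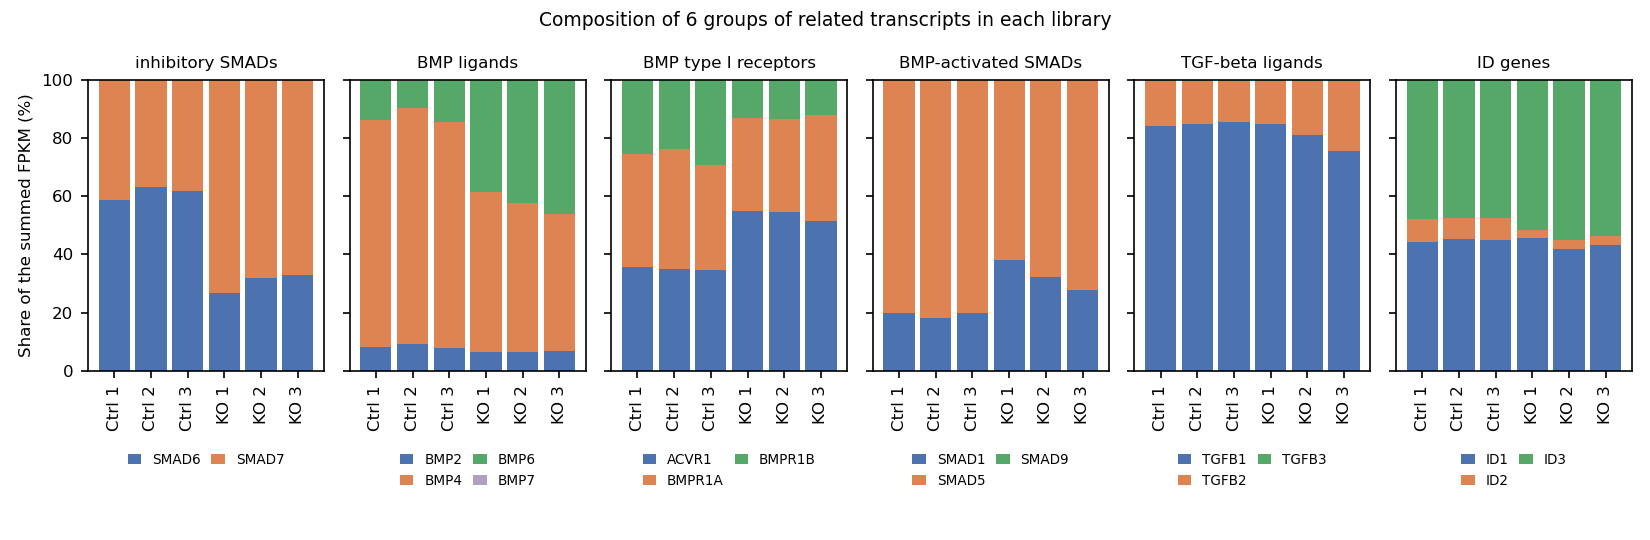
Share of each transcript in the summed FPKM of 6 groups of related pathway genes, in percent, with 1 bar for each library and Ctrl libraries to the left of MIR21-KO libraries (KO). SMAD7 took the larger part of the inhibitory SMADs in the 3 MIR21-KO libraries, BMP6 took 38.5% to 46.2% of the BMP ligands there, and the shares of TGFB1 and TGFB2 overlapped between the groups.

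Among the 8 intracellular and membrane inhibitors, PMEPA1 and TGIF2 rose and the other 6 were not called. PMEPA1 (ENSG00000124225, chromosome 20, 57648392 to 57711536, minus strand), a TGF-beta induced membrane protein that sequesters SMADs, was the most abundant of the 47 transcripts in each Ctrl and each MIR21-KO library. It had 142, 139 and 143 FPKM in Ctrl and 262, 259 and 266 FPKM in MIR21-KO libraries. The groups stood far apart with little spread, and the log2 fold change was 0.90 ± 0.0725 (FDR = 0.000356, limma). PMEPA1 shares 343 exonic bases with the antisense gene NKILA, which had 183 to 239 reads against 8387 to 20023 for PMEPA1.

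TGIF2 (ENSG00000118707, chromosome 20, 36573488 to 36593950, plus strand), a corepressor of SMAD-driven transcription, had 3.40, 3.69 and 2.65 FPKM in Ctrl and 5.43, 5.44 and 5.07 FPKM in MIR21-KO libraries. The groups did not overlap, but the log2 fold change of 0.71 ± 0.139 had an FDR of 0.00994 (limma), just under the threshold, and the call was lost without any 1 of the 6 libraries (FDR 0.0135 to 0.0472), without the filter on low values (0.0207) and under median-ratio scaling (0.0101) or scaling by total reads (0.0114). Just above the threshold was SKI, another corepressor, with 8.54 ± 0.141 FPKM in Ctrl and 11.6 ± 1.01 FPKM in MIR21-KO cells (log2 fold change 0.43 ± 0.0866, FDR = 0.0103, limma). SKI was called higher with voom (FDR = 0.00602), with a minimum mean of 1 FPKM (0.00932) and without MIR21-KO replicate 1 (0.00791). The SKI relative SKIL had 9.13 ± 0.209 and 11.2 ± 2.43 FPKM (FDR = 0.217, limma).

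BAMBI, a decoy receptor without a kinase domain, had 8.86, 8.52 and 11.4 FPKM in Ctrl and 16.5, 14.2 and 12.0 FPKM in MIR21-KO libraries, a difference that missed the threshold (log2 fold change 0.56 ± 0.156, FDR = 0.0343, limma). The corepressor TGIF1 was not called, at 15.8 ± 0.249 and 15.4 ± 0.783 FPKM (FDR = 0.688, limma). The ubiquitin ligases that mark receptors and SMADs for breakdown were not called either, with 10.7 ± 1.02 and 9.51 ± 1.19 FPKM for SMURF1 and 9.17 ± 0.322 and 8.64 ± 1.52 FPKM for SMURF2. SMURF1 shares 735 exonic bases with TRRAP and SMURF2 shares 167 with CEP95, each on the opposite strand.

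Beyond the inhibitors, 20 further signalling partners (receptor and SMAD adaptors, ubiquitin ligases and deubiquitinases, coactivators) were each tested, and limma called 0 of them. At the same threshold, an FDR under 0.01, 16.0% of all tested genes were called. The smallest FDR among the 20 was 0.0161, for STRAP (log2 fold change -0.32, limma). Of the 20, 4 had an unadjusted p under 0.05, 3 were called with voom, and the median log2 fold change was -0.14.

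ID1, ID2 and ID3 encode dominant negative helix-loop-helix proteins and are classical direct targets of BMP signalling. ID2 (ENSG00000115738, chromosome 2, 8678845 to 8684453, plus strand) fell from 23.0, 20.7 and 22.8 FPKM in Ctrl to 10.1, 8.74 and 7.66 FPKM in MIR21-KO libraries. The log2 fold change was -1.32 ± 0.114 (FDR = 0.000472, limma), and the call was kept under each alternative. The other ID transcripts were more abundant and were not called. ID3 had 139, 136 and 140 FPKM in Ctrl and 186, 162 and 130 FPKM in MIR21-KO libraries, so that its groups overlapped (log2 fold change 0.19 ± 0.135, FDR = 0.336, limma). ID1 had 131 ± 2.27 FPKM in Ctrl and 131 ± 30.7 FPKM in MIR21-KO cells (FDR = 0.930, limma). For ID1 and ID3 the MIR21-KO libraries spread over a far wider range than the Ctrl libraries. ID4, the remaining relative, had an FPKM of 0.0793 in Ctrl replicate 2 and was listed at 0 in the other libraries.

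Further BMP target genes were followed by a list of 8, of which 4 were tested and 2 were called. Over all tested genes 16.0% were called, and 4 genes are too few to set against that share. MSX2, a homeobox gene, rose from 5.07 ± 0.280 to 15.2 ± 0.644 FPKM (log2 fold change 1.57, FDR = 7.68e-05), and RUNX2, the osteoblast transcription factor, from 1.70 ± 0.142 to 4.81 ± 0.375 FPKM (1.45, FDR = 0.000395, limma). Their direction was thus opposite to that of ID2. MSX1 (0.28) and ATOH8 (1.03, FDR = 0.0618) were not called.

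The secreted antagonists were few and mostly low in these cells. FSTL3, a follistatin relative that binds activins, was the most abundant and was not called, with 49.1, 49.9 and 51.4 FPKM in Ctrl and 53.5, 52.5 and 45.0 FPKM in MIR21-KO libraries, which overlapped (log2 fold change 0.00 ± 0.0879, FDR = 0.986, limma). Follistatin itself (FST, ENSG00000134363, chromosome 5, 53480409 to 53487134, plus strand), the classical activin trap, had 1.48, 1.19 and 1.16 FPKM in Ctrl and 0.0494, 0.220 and 0.182 FPKM in MIR21-KO libraries. All MIR21-KO values were far below those of Ctrl, from 17 reads against 141, and Ctrl held 8.67 times the reads for its library size (95% confidence interval 5.23 to 15.3, exact binomial, counting error only). The fitted log2 fold change was -2.52 ± 0.412 (FDR = 0.00491, limma), with a range of -3.21 to -0.98 over the alternatives, and the call was lost without any 1 of the Ctrl libraries or without MIR21-KO replicate 2 (FDR 0.0130 to 0.0335).

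GREM1 (ENSG00000166923, chromosome 15, 32717974 to 32745107, plus strand), the BMP antagonist gremlin, lay just under the minimum for testing. It had 0.812, 0.738 and 0.816 FPKM in Ctrl, from 151, 116 and 163 reads, and 0.0251, 0.0727 and 0.0211 FPKM in MIR21-KO libraries, from 5, 13 and 4 reads. Ctrl held 20.4 times the reads of MIR21-KO cells for its library size (95% confidence interval 13.3 to 32.9, exact binomial, counting error only). Without the filter on low values, GREM1 was called lower with a log2 fold change of -2.69 (FDR = 0.00250, limma). Noggin (NOG) had 3 to 11 reads and chordin (CHRD) at most 4 reads in a library.

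Of 14 further secreted antagonists and modulators 6 were tested and 2 called, both higher, where 7.66% of all tested genes were called higher. HTRA1, a secreted protease that can cleave TGF-beta family proteins, rose from 36.2 ± 1.98 to 179 ± 24.5 FPKM (log2 fold change 2.30, FDR = 7.51e-05), and FSTL1, a follistatin-like glycoprotein, from 15.5 ± 0.183 to 41.0 ± 3.89 FPKM (1.39, FDR = 0.000145, limma). Of 22 further ligands, 17 had means under 0.5 FPKM. Among the 5 tested, only GDF15, a stress-induced cytokine, was called at an FDR under 0.01, falling from 38.1 ± 2.20 to 13.6 ± 3.92 FPKM (log2 fold change -1.52, FDR = 0.00227, limma). Its call was lost without Ctrl replicate 1, 2 or 3 and without MIR21-KO replicate 2, where its FDR reached 0.0149. Over all tested genes 8.38% were called lower.

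Most of the known TGF-beta target genes followed here rose upon MIR21 deletion. Of 18 such genes 17 were tested, 13 were called and each of the 13 was higher, against 7.66% of all tested genes called higher, with a median log2 fold change of 1.12. The list was chosen with earlier results of these data known, so its count is no independent test of the pathway. Leaving out 1 library gave 11 to 13 calls, with TSPAN2 lost without any 1 of the 6 libraries and LTBP2, which is in this list too, as given above. TAGLN, an actin-binding protein of smooth muscle, rose from 12.7 ± 0.937 to 64.8 ± 5.98 FPKM (log2 fold change 2.34, FDR = 4.19e-05). TGFBI, an extracellular matrix protein, rose from 208 ± 5.50 to 876 ± 61.6 FPKM (2.07, FDR = 4.88e-05), and SNAI2, a repressor of epithelial genes, from 4.30 ± 0.285 to 15.9 ± 0.579 FPKM (1.86, FDR = 4.95e-05, limma). CYR61 (0.36), CDKN1A (0.27), COL1A1 (0.18) and PDGFB (-0.21) were not called, and CDKN2B was listed at 0 in every library. Of the 5 epithelial markers in the same libraries, CDH1 was called lower and the other 4 were not called, with log2 fold changes of -0.69 for KRT18 (FDR = 0.0153), -0.68 for EPCAM, -0.23 for KRT8 and 0.29 for KRT19. Their summed level was 1194 to 1288 FPKM in Ctrl and 776 to 1106 FPKM in MIR21-KO libraries, and their part in the target genes' values was not tested.

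**Figure D3:**
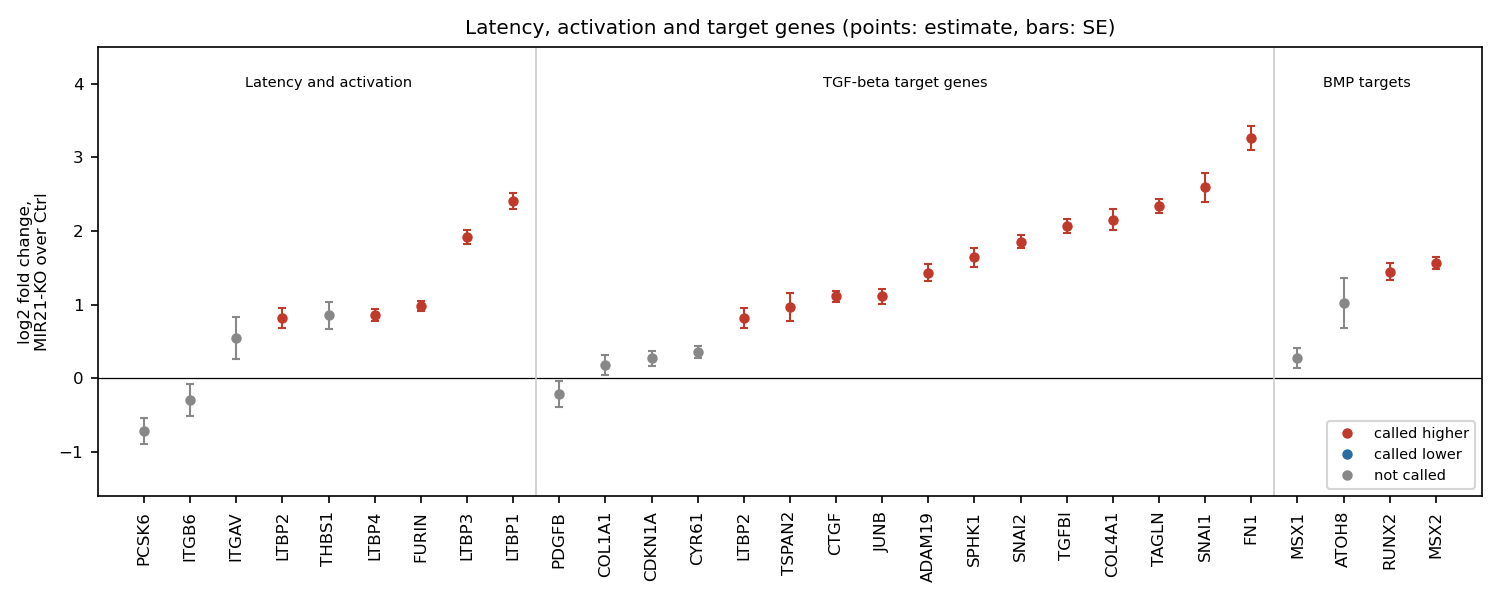
Log2 fold change of tested genes of 3 lists that surround the pathway, MIR21-KO over Ctrl on the log2(FPKM + 0.1) scale, with points for the estimate, bars for its standard error (limma, 3 libraries per group) and colours for the call at an FDR under 0.01. LTBP2 stands in 2 lists. The called genes shown lie above 0, from 0.83 for LTBP2 to 3.27 for FN1.

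Set against the seed matches shown above, called genes were found in each class of match and among the genes without a match. Of the 4 genes with a miR-21-5p 8mer, TGFB2 and SMAD7 were called higher, and SKI (0.43) and BMPR2 (0.59) had positive estimates that were not called. An 8mer was the best site in 10.5% of the 38 tested pathway genes and in 2.98% of 11658 tested genes with a 3' UTR, of which the pathway genes had the longer ones (medians of 3057 and 1622 bases). Among all 347 tested genes with an 8mer, 174 had a positive estimate, and the median log2 fold change was 0.00014. Of the 347, 10.1% were called higher and 6.92% lower. Over the 11658 genes 9.09% and 10.6% were called, and over those without a match 9.35% and 11.1%.

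With a 7mer-m8 as the best site, TGFBR2 was called higher and TGFBR3 lower, and TGFBR1, SMURF2 and ACVR2B were not called. The 3 tested genes with a 7mer-A1 were BMPR1B and FST, which were called lower, and ACVR2A, which was not called. A 6mer was the best site in PMEPA1 (called higher), ACVR1B (called lower), SMAD2, BAMBI and BMPR1A. The other 21 tested genes held no match, and 4 of them were called higher (TGFB1, BMP6, BMP1 and TGIF2) and 4 lower (BMP4, INHBB, SMAD6 and ID2). The 3' UTRs searched in these 21 had a median of 1691 bases, against 3057 over the 38. Some were short, with 145 bases in SMAD1 and 368 in BMP4, so that little sequence was searched there. Genes without a match made up 55.3% of the tested pathway genes and 70.6% of all tested genes with a 3' UTR.

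For let-7a-5p, of a microRNA family that the study followed too, an 8mer (CTACCTCA) was found in 5 tested pathway genes, TGFBR1, TGFBR3, BMPR1A, SKIL and SMAD2, and in GREM1, which was not tested. Of the 5, TGFBR3 was called lower and the others were not called. Such an 8mer was the best site in 13.2% of the 38 tested pathway genes and in 5.08% of the 11658 tested genes with a 3' UTR. As given above, the pathway genes had the longer 3' UTRs. The 8mer of SMAD2 lay at base 20667 of an annotated 3' UTR of 32870 bases, and that of GREM1 at base 11773 of 13862. Among all 592 tested genes with a let-7a-5p 8mer, 6.08% were called higher and 10.1% lower. Over the 11658 genes, 9.09% and 10.6% were called. TGFBR1 and TGFBR3 thus held sites for both microRNAs and had estimates of opposite sign, 0.40 and -1.14. BMPR1A (-0.46) and SMAD2 (0.45) held sites for both too, with a 6mer as the best miR-21-5p site. With weaker let-7a-5p sites, so did ACVR1B (called lower), ACVR2A and ACVR2B (not called). In GREM1, the let-7a-5p 8mer stood beside a miR-21-5p 6mer.

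**Figure D4:**
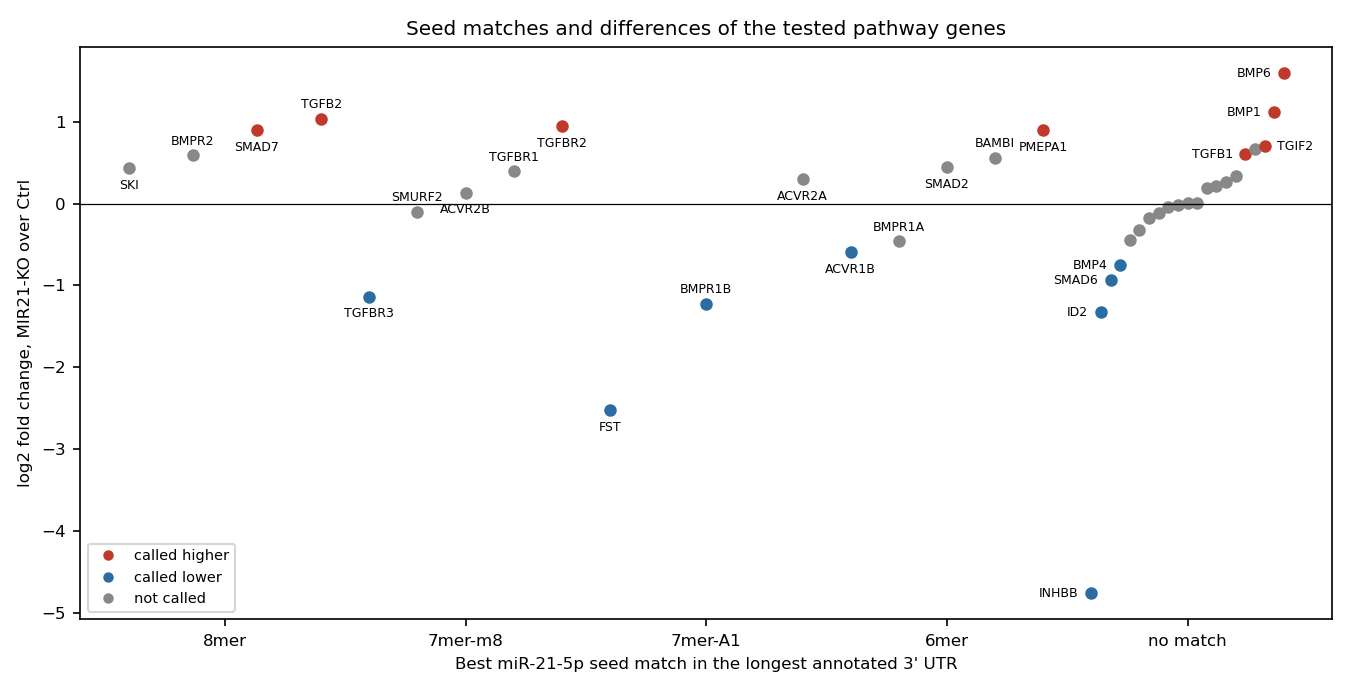
Log2 fold change of the 38 tested pathway genes, MIR21-KO over Ctrl, by the best miR-21-5p seed match in the longest annotated 3' UTR, with colours for the call at an FDR under 0.01 and, within a class, genes spread from the lowest to the highest estimate. Genes without a match are named where called. The 4 genes with an 8mer lie above 0, where 174 of all 347 tested genes with an 8mer had a positive estimate. Called genes of both directions are found among those without a match.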

How the data were processed

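Reads of 3 Ctrl and 3 MIR21-KO libraries were processed by the authors, whose processing notes name cutadapt 1.14, HISAT2 2.1.0, SAMtools 1.5, featureCounts 1.5.3, edgeR 3.18.1 and the build hg38. The annotation release and the strand setting of the counting are not given in the sources used here. The authors deposited 1 table of FPKM values per gene and library, made from read counts, gene lengths and library sizes. Its columns of fold change, p-value and FDR hold the authors' own comparison and were not used. FPKM multiplied by gene length came out as whole reads in each library (tolerance 0.01 reads), which gave the reads quoted. Counting error alone is covered by the intervals and the limit of 3 reads.

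After removal of genes whose mean was below 0.5 FPKM, 0.1 was added, and the log2 values entered limma 3.58.1 under R 4.3.3 (empirical Bayes with trend and robust fitting, two-sided), with Benjamini-Hochberg FDRs over all 16006 tested genes and calls under 0.01. The fit was also run on simulated data with the same spread setting for every gene and group. That run does not cover the wider MIR21-KO spread of genes such as ID1. The alternatives were other added values (0.5 and 1), no filter or a minimum of 1 FPKM, median-ratio scaling, an FDR under 0.05, limma without trend and robust fitting, voom on the recovered reads, the replicate number as a block and leaving out each library. Removing length and GC trends and scaling by total reads were added after seeing the data. The main fit did not pair libraries by replicate number, since same-numbered libraries shared no deviation and the labels state no pairing.

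Positions and 3' UTRs came from GENCODE 29 on GRCh38, which gave the GC content of 57836 of the 58174 genes. The genes and lists were chosen with earlier results of these data known. All values were given for called pathway genes and for the most abundant gene of each role. Of each further list, the 3 called genes with the smallest FDR were named, with TGFBI and ID4 whatever their values (1 further gene of this rule is not reported here), and the other genes named were chosen after their values were seen. Plots used matplotlib 3.10.9 under Python 3.11.15.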

Additional observations from a re-analysis of the deposited data

How the results depend on the processing

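Over 17 alternatives, 5 of the 16 called pathway genes kept their call throughout and 11 lost it in some. The alternative with an FDR under 0.05 could remove no call. No fold change of a called gene turned its direction. Of the repeated fold changes of tested pathway genes, 568 stayed on their side of the threshold, 58 lost and 16 gained the call. Among all tested genes, 2568 were called, against 873 to 922 without 1 Ctrl library, 768 without MIR21-KO replicate 2, 5114 at an FDR under 0.05 and 3969 with length and GC trends removed, the last chosen after seeing the data. The cause of these shifts was not tested.

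Without the filter on low values, 2 receptors, 1 intracellular or membrane inhibitor and 2 secreted antagonists were called. With a minimum of 1 FPKM, limma called 0 of 1 tested secreted antagonists, and 0 had an unadjusted p under 0.05. Median-ratio scaling and scaling by total reads each called 1 intracellular or membrane inhibitor, and the latter called 2 of the further pathway genes lower. At an FDR under 0.05, 13 pathway genes were higher, 5 further genes lower, and 4 SMADs and 4 inhibitors were called. Without trend and robust fitting, 2 receptors and 1 inhibitor were called and 2 further genes were lower. Voom called 4 SMADs, of which SMAD6 was the lower one, and it called 5 further genes lower, and with length and GC trends removed 2 further genes were lower.

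With the replicate number as a block, limma called 651 of all genes (58.2% of them higher, against 47.7%), and of the pathway genes 4 higher and 2 lower. These were 2 ligands, the proteinase BMP1, 1 SMAD, 1 inhibitor and the ID gene ID2. The block fit called 0 receptors (6 of 10 with an unadjusted p under 0.05) and 0 secreted antagonists (1 of 2). Deviations of same-numbered libraries correlated at -0.171, -0.0177 and -0.0174, and no library correlated best with its own number. No shared deviation was thus seen, which cannot tell whether same-numbered libraries were prepared together, and the labels do not say.

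Leaving out 1 library gave 4 to 8 pathway genes called higher and 2 to 9 lower, with 1 to 5 ligands, 1 to 5 receptors, 1 to 2 SMADs, 1 to 2 inhibitors and 0 to 1 secreted antagonists (1 of 2 with an unadjusted p under 0.05), and 0 to 2 further genes lower by limma (5 to 14 with an unadjusted p under 0.05). With a single read worth up to 0.0930 FPKM on 1 kb, genes of few reads carry wide counting intervals.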
